A study of Mus musculus with 54 samples.

Results

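The colony-stimulating factor receptors and ligands are 8 genes here, namely Csf1r, Csf1, Il34, Csf2ra, Csf2rb, Csf2rb2, Csf3r and Csf3, taken by their symbols from 33280 gene symbols in 3 count tables of RNA from sorted mouse brain macrophages. The rule used the symbols alone. All 8 symbols were found. Csf1r, Csf1, Csf2ra, Csf2rb, Csf2rb2 and Csf3r had more than 3 counts in each of 54 libraries, whereas Il34 passed 3 counts in 12 libraries and Csf3 in 23.

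CSF1R is the receptor tyrosine kinase on which microglia and other tissue macrophages depend for survival, and it binds the ligands CSF1 and interleukin-34, the latter made mainly by neurons in the brain. The receptor for GM-CSF joins a ligand-binding alpha chain, CSF2RA, to the common beta chain, CSF2RB, which also serves interleukin-3 and interleukin-5. Mice carry a close copy of the beta chain gene, Csf2rb2, whose product pairs with the interleukin-3 receptor. CSF3R binds G-CSF, the product of Csf3, and is best known for driving the production and release of neutrophils. Signals from these cytokine receptors run through Janus kinases and STAT transcription factors and induce feedback genes such as Socs3, Cish and Pim1.

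The study asked how 2 brain populations, microglia (MG) and the subdural macrophages of leptomeninges and perivascular spaces (sdCAMs, where CAM stands for CNS-associated macrophage), respond to lipopolysaccharide (LPS), a bacterial endotoxin, once they have repopulated after depletion with BLZ945, an inhibitor of CSF1R. Wild-type (WT) and Ccr2-deficient (Ccr2-/-) mice were either left untreated and given PBS, given the vehicle of BLZ945 and then LPS (CTL+LPS), or given BLZ945 and then LPS, and both populations were sorted from 3 mice of each group. Reporter mice of the genotype Ccr2CreERT2/CreERT2:R26tdT/tdT all received BLZ945 and tamoxifen, then PBS or LPS, and gave MG as well as sdCAMs with (tdT+) and without (tdT-) the tdTomato label that tamoxifen turns on in cells expressing Ccr2. Injections came 8 weeks after the treatment and cells were sorted 12 h later from brain without choroid plexus. In WT and Ccr2-/- mice the PBS group had no vehicle, so LPS and vehicle cannot be told apart in those comparisons, and in reporter mice no group lacked BLZ945.

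Library totals ran from 1705930 to 11330781 counts, with the WT sdCAM libraries lowest at 1705930 to 7699790. Levels below are counts per 1000000 (CPM) scaled over all libraries by TMM, which corrects for differences in RNA composition. The scaling factors ran from 0.344 to 0.494 in WT sdCAMs after CTL+LPS and from 0.47 to 0.7 in tdT- sdCAMs after LPS, which stood apart from the range of 0.843 to 1.37 in all libraries other than these and the WT sdCAMs after BLZ945+LPS (0.369 to 1.28). The summed level of 8 sdCAM markers was 7522.9 to 8141.1 CPM in Ccr2-/- sdCAMs and 10.5 to 14.8 CPM in Ccr2-/- MG after CTL+LPS, where titles and cell type labels disagreed and the latter were followed. Ccr2 read 17.1 to 51.1 CPM in resting WT sdCAMs and 2.33 to 5.21 CPM in resting Ccr2-/- sdCAMs, and in resting reporter sdCAMs it read 230.0 to 281.1 CPM in tdT+ and 141.9 to 193.9 CPM in tdT- cells. In the reporter mice, the columns of tdT- mouse 1 and tdT+ mouse 7 after LPS carried each other's index, and sex-linked transcripts placed libraries of both sexes in 2 of 24 mice as named and in 0 of 24 with these 2 columns exchanged. In the tdT+ library of mouse 5 after LPS, microglial markers stood at 82.6% of the MG library from the same animal (median over markers), against 3.92% and 9.72% for the other tdT+ libraries of that group. Results on tdT+ and tdT- cells after LPS use the columns as named, and values without mouse 5 or with the exchange are added where either changes a call or an overlap. The 3 libraries of a group came from separate mice, while the populations sorted from a mouse share that animal, so cell type comparisons were also fitted with the mouse as a block. In all comparisons, lower expression per cell and fewer cells of a type cannot be told apart in sorted bulk RNA.

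The pair Csf2rb and Csf2rb2 can share reads. In GENCODE annotation of GRCm38, 17.1% of the 50-base windows of Csf2rb exons and 18.8% of those of Csf2rb2 occur in the other gene, and no other member shares any window with a member. Their coding sequences (2688 and 2634 bases) were identical at 95.2% of aligned bases, with one unbroken identical run of 242 bases. The window of 60 coding bases in which they differ most, at 13 bases, is shown because reads there separate the genes, with the differing bases in capitals (coding positions 304 to 363 and 307 to 366).
Csf2rb: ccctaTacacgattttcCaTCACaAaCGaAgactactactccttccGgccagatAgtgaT
Csf2rb2: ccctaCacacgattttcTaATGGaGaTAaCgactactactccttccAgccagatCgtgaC
The neighbouring genes lie with 1 annotated gene between them. How the counting treated shared reads was not stated, so the split between Csf2rb and Csf2rb2 is uncertain, and their sum was fitted as well. Csf2rb2 took 27.2% ± 7.19 (SD, n = 54) of the counts of the pair, from 7.45% to 44%. Csf1r overlaps Hmgxb3 on the opposite strand, and without a stated strand setting their shared reads cannot be separated, although Hmgxb3 reached no more than 73.5 CPM in any library.

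Promoter sequence is shown for Csf1, Csf2rb2 and Csf3r, each of which rose or fell with LPS in at least 1 population, as the 250 bases before the RefSeq start in GRCm38.p6. Capitals mark matches to kappaB (an NF-kappaB site), the PU.1 core GAGGAA and the STAT motif TTCNNNGAA, searched on both strands together with the C/EBP motif TTGCNNAA and the AP-1 motif TGANTCA, which had no match in these 3 windows. The marked matches do not overlap each other. The Csf2ra window, not shown, held 2 PU.1 cores, and promoters of Csf1r, Il34, Csf2rb and Csf3 were not analysed here.
Csf1: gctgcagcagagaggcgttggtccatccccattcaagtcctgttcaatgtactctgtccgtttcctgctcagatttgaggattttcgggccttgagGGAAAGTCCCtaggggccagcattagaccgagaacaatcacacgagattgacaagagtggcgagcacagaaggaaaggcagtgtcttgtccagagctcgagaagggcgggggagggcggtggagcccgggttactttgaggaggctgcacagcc
Csf2rb2: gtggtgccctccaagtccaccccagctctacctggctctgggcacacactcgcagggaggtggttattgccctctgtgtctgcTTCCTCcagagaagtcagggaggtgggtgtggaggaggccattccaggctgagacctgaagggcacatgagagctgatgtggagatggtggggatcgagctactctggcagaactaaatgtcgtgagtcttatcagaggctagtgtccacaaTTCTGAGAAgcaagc
Csf3r: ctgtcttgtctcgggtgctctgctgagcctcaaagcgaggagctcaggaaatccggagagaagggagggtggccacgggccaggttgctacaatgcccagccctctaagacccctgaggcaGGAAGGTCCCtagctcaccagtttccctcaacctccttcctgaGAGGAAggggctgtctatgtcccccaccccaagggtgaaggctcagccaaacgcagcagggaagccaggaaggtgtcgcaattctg
The Csf1 window, chr3:107760470-107760719 on the minus strand, held a kappaB match 154 to 145 bases before the start. The Csf2rb2 window, chr15:78305722-78305971 on the minus strand, held a PU.1 core 167 to 162 bases and a STAT match 15 to 7 bases before the start. The Csf3r window, chr4:126024409-126024658 on the plus strand, held a kappaB match 129 to 120 bases and a PU.1 core 86 to 81 bases before the start. Among 32851 promoters of the same length, 7.25% held a kappaB match, 23.3% a PU.1 core and 7.02% a STAT match, so these matches are a description of the letters and not of binding.

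At rest the receptors spanned a wide range of levels. Per kilobase of exon, Csf1r stood at 1838.4 ± 78.2 CPM per kb in WT MG (SD, n = 3), Csf3r at 146.8 ± 30 and Csf2ra at 39.3 ± 5.9. Below these came Csf2rb at 12.9 ± 0.637, Csf2rb2 at 8.42 ± 0.361 and the ligand Csf1 at 5.88 ± 2.38 CPM per kb, the last of which differed by about its SD from Csf2rb2. Resting Ccr2-/- sdCAMs had Csf1r at 1571.0 ± 89.7, Csf2ra at 37.4 ± 2.01 and Csf3r at 32.6 ± 3.7 CPM per kb, followed by Csf2rb at 14 ± 0.898, Csf2rb2 at 6.9 ± 3.15 and Csf1 at 2.06 ± 0.203. Csf1r was thus the top member on the per-length scale in both populations, and its counts made up 90.2% of the counts of all members. Csf3r ranked above Csf2ra in MG, while in these sdCAMs the values of the 2 genes lay about 1 SD apart.

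Csf1r was lower after LPS than after PBS in every population, with no overlap between the groups in 7 of 7. In WT MG its level was 10179.3, 10585.1 and 11080.3 CPM after PBS and 6160.4, 7558.9 and 7009.0 CPM after CTL+LPS. Ccr2-/- MG gave 11229.8, 12208.3 and 11813.1 CPM after PBS and 7622.9, 8511.6 and 8191.6 CPM after CTL+LPS. The drop in MG was moderate, by 0.61 on the log2 scale in WT (SE 0.109, edgeR adjusted p = 0.00153) and by 0.51 in Ccr2-/- mice (SE 0.127, adjusted p = 0.00635). In sdCAMs of Ccr2-/- mice Csf1r went from 9613.7, 8581.6 and 9017.2 CPM to 2698.7, 3078.2 and 2891.9 CPM. That change, a log2 fold change of -1.65 (SE 0.133, adjusted p = 1.67e-06), exceeded the change in MG of the same genotype by -1.10 (SE 0.189, adjusted p = 0.000782 for the interaction). WT sdCAMs had 3276.7, 3964.7 and 5639.4 CPM after PBS and 987.1, 1365.2 and 1036.9 CPM after CTL+LPS. Although these groups did not overlap either, the log2 fold change of -1.78 (SE 0.668) did not pass the test across all genes (adjusted p = 0.125, with a biological coefficient of variation of 0.7 against 0.257 in WT MG), and it did with DESeq2 (0.000535) or with the correction mark that 6 WT sdCAM libraries carry as a covariate (0.0475). That mark, named an IEG correction and not explained in the labels, was on every WT sdCAM library after CTL+LPS. It was also on those of PBS mice 9 and 14 and of BLZ945+LPS mouse 12. The interaction in WT was -1.25 (SE 0.523, adjusted p = 0.214).

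**Figure D1:**
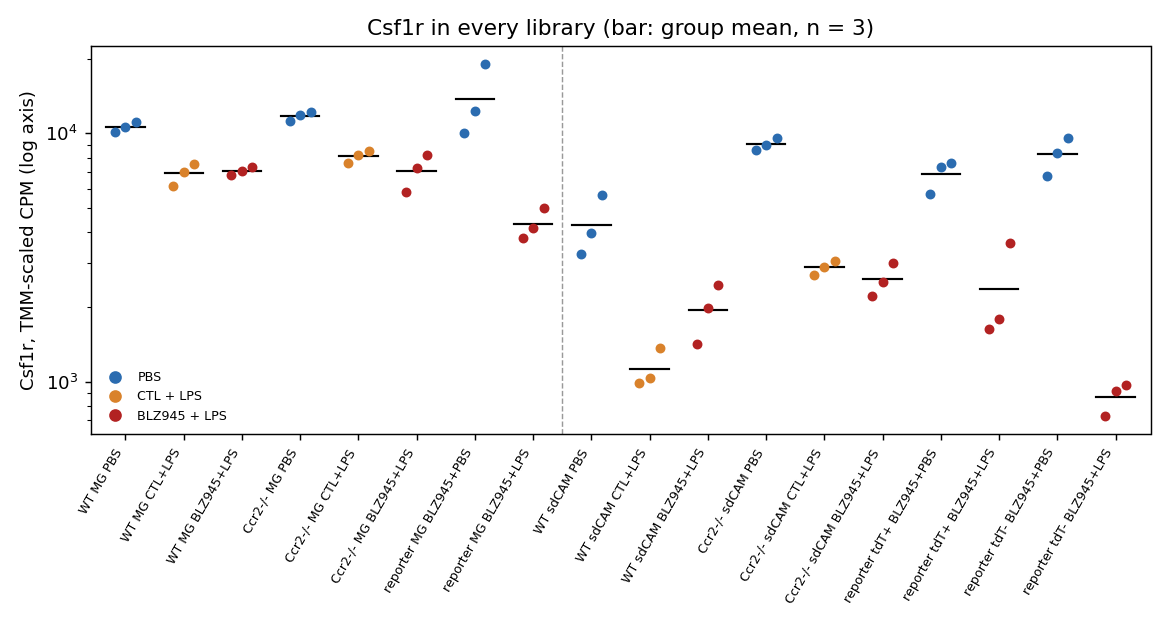
Csf1r level of each library in TMM-scaled CPM on a log axis, by population and treatment, with bars at the group means (n = 3) and a dashed line between MG (left) and sdCAM (right) groups. LPS libraries lie below the PBS libraries of the same population throughout, from 916.0, 725.0 and 968.9 CPM in tdT- sdCAMs up to the MG groups.

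In reporter mice, all of which had been repopulated, MG read 10017.3, 19115.9 and 12346.0 CPM for Csf1r after PBS and 3797.8, 4171.6 and 5010.0 CPM after LPS. The log2 fold change of -1.73 (SE 0.406) missed the threshold with an adjusted p of 0.0956, and without PBS mouse 175, whose library was the highest, it was -1.37 with an adjusted p of 0.0343. Labelled tdT+ sdCAMs had 5714.7, 7303.5 and 7635.8 CPM after PBS and 1634.4, 3634.5 and 1793.7 CPM after LPS, and tdT- sdCAMs had 6746.0, 8369.3 and 9602.5 CPM against 916.0, 725.0 and 968.9 CPM. The highest tdT+ library after LPS was the one of mouse 5 with microglial markers. The log2 fold change of Csf1r was -1.55 for tdT+ (SE 0.367, adjusted p = 0.0113), and for tdT- it was -3.25 (SE 0.391, adjusted p = 2.57e-05, and -2.83 with 0.00861 after the exchange). For tdT+ cells the adjusted p was 0.000598 without mouse 5 (log2 fold change -2.02), 0.0565 without mouse 1 (-1.35), 0.0652 without mouse 7 (-1.39) and 0.0736 with the columns exchanged (-1.74). With tdT+ and tdT- counts summed per mouse, the log2 fold change was -2.19 (SE 0.375, adjusted p = 0.00314), and -2.20 with the columns exchanged.

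Between populations, resting WT sdCAMs had less Csf1r than WT MG (log2 difference -1.30, SE 0.374, adjusted p = 0.0244). This call was lost with the mouse as a replicate block (-1.33, adjusted p = 0.0856) and on leaving out sdCAM mouse 9 (0.082) or 14 (0.0605), or MG mouse 9 (0.0706), 14 (0.0782) or 15 (0.0911). In Ccr2-/- mice the resting difference was small, -0.38 (SE 0.133, adjusted p = 0.0475), and it lost its call in 10 of 12 alternatives, among them every omission of a mouse from either population (adjusted p 0.0669 to 0.139) and the block (0.0923). After CTL+LPS the gap was wide in both genotypes, at -2.55 in WT (SE 0.39, adjusted p = 0.000239) and -1.48 in Ccr2-/- mice (SE 0.136, adjusted p = 1.07e-07). Microglial markers were also lower in sdCAMs than in MG, and lower after CTL+LPS than at rest. Their summed level, over 7 of 8 listed genes, was 45180.2 to 46329.4 CPM in resting Ccr2-/- MG. In resting Ccr2-/- sdCAMs it was 4287.7 to 6029.1 CPM, beside the small Csf1r difference of -0.38. After CTL+LPS it was 13644.2 to 15786.7 CPM in Ccr2-/- MG and 1110.2 to 1552.4 CPM in Ccr2-/- sdCAMs. The part of microglial RNA in the Csf1r differences was not tested.

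Counts of called members have to be read against the share of all tested genes called, which LPS made large. In WT MG 5 of 6 members tested passed (3 higher, 2 lower) where 30.9% of all genes did, and in Ccr2-/- MG 5 of 6 (3 higher, 2 lower) where 34.9% did. For Ccr2-/- sdCAMs these figures were 7 of 8 (6 higher, 1 lower) and 28.8%, and for WT sdCAMs 1 of 7 (higher) and 6.32%. No member of 7 passed in reporter MG, where 1.08% of genes did. In tdT+ sdCAMs 4 of 7 passed (3 higher, 1 lower) against 13.6% of genes, in tdT- sdCAMs 4 of 7 (3 higher, 1 lower) against 27.1%, and in the summed sdCAMs 4 of 7 (3 higher, 1 lower) against 27.0%. The median log2 fold change of the members was 0.60 in WT MG, 1.06 in Ccr2-/- MG and 1.34 in Ccr2-/- sdCAMs, beside 0.02, 0.00 and -0.05 over all genes.

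**Figure D2:**
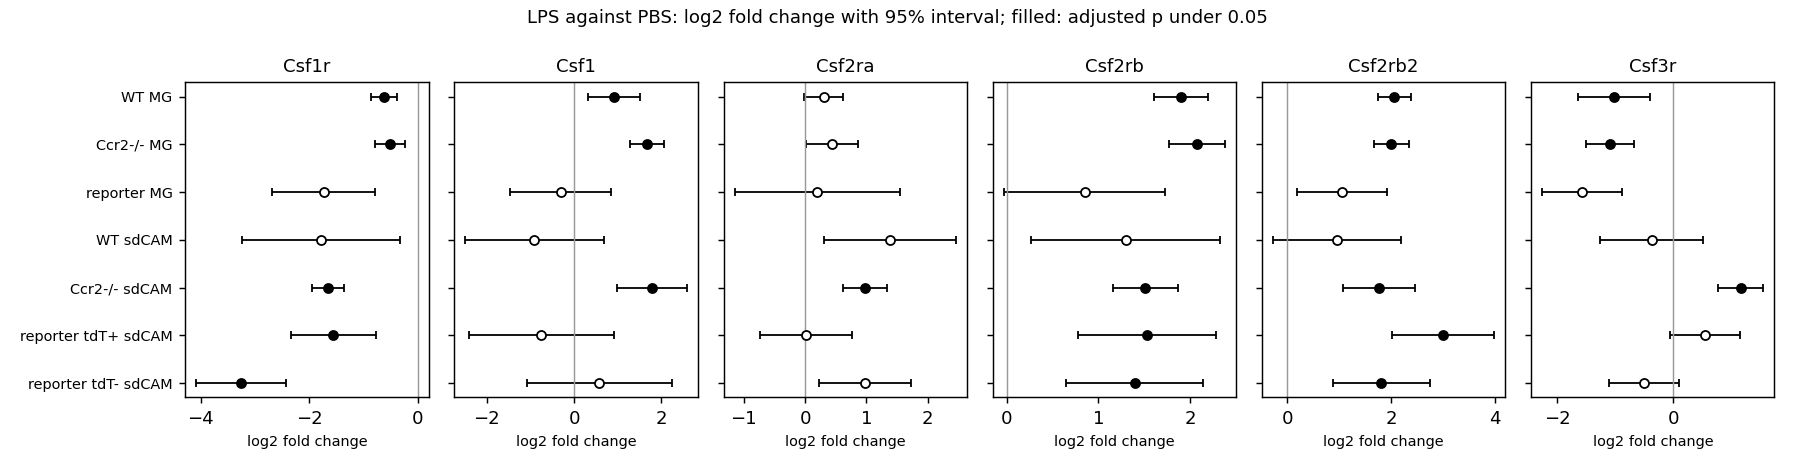
Log2 fold change of 6 members between LPS and PBS in 7 populations, with 95% intervals, filled points marking adjusted p under the threshold of 0.05. Csf1r lies left of zero throughout (from -0.51 to -3.25), Csf2rb right of zero throughout (from 0.85 to 2.07), and Csf3r lies on either side (from -1.57 to 1.17).

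Kinases and adaptors that act just downstream of CSF1R gave no shared direction. Of 24 such genes, all tested, 4 rose and 5 fell in WT MG, 3 rose and 7 fell in Ccr2-/- MG, and 6 rose and 2 fell in Ccr2-/- sdCAMs, with median log2 fold changes of 0.06, -0.03 and 0.25. The share of all genes called, 30.9%, 34.9% and 28.8%, stands beside these counts. The Src-family kinase gene Fgr rose in all of these populations, by 4.97, 4.91 and 8.38 on the log2 scale (adjusted p = 3.79e-05, 1.71e-07 and 9.1e-08). Lyn, which encodes a related kinase, rose by 1.57 in Ccr2-/- sdCAMs (adjusted p = 1.63e-05) and had log2 fold changes of 0.17 and 0.36 in WT and Ccr2-/- MG that did not pass (0.5 and 0.0725). Mapk3, which encodes the kinase ERK1, went the other way with -0.75, -1.33 and -1.45 (adjusted p = 0.0133, 6.48e-05 and 0.00131). In the other populations 1 rose and 1 fell (WT sdCAMs), 0 passed (reporter MG), 6 rose and 1 fell (tdT+) and 7 rose and 4 fell (tdT-). The shares of all genes called there were 6.32%, 1.08%, 13.6% and 27.1%.

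Transcription factors known to act on the Csf1r gene moved in both directions while Csf1r itself fell. Of 8 tested, 3 rose and 4 fell in WT MG, 3 rose and 3 fell in Ccr2-/- MG, and 3 rose and 2 fell in Ccr2-/- sdCAMs, where 30.9%, 34.9% and 28.8% of all genes passed. In WT sdCAMs 1 rose and 1 fell, in reporter MG 0 passed, and in tdT+ and in tdT- sdCAMs 1 rose and 2 fell. Beside these stand 6.32%, 1.08%, 13.6% and 27.1% of all genes called. Cebpb, which encodes an inflammation-induced C/EBP factor, rose by 2.71, 3.03 and 3.21 in WT MG, Ccr2-/- MG and Ccr2-/- sdCAMs (adjusted p = 9.42e-07, 4.29e-08 and 2.44e-07). The Ets family gene Fli1 had log2 fold changes of -1.10, -1.11 and -2.07 (adjusted p = 0.00164, 0.000347 and 5.71e-05), whereas Ets2 rose by 1.11, 1.18 and 1.52 (adjusted p = 0.00238, 0.0113 and 0.000554). Spi1, the gene of PU.1, rose by 0.87 in Ccr2-/- sdCAMs (adjusted p = 0.000435), with 0.01 and 0.18 in WT and Ccr2-/- MG that did not pass (0.972 and 0.297). Of 4 further receptors, the IL-34 receptors Ptprz1 and Sdc1 and the related kinases Flt3 and Kit, none passed in these 3 populations, with 1, 2 and 2 of them tested, and 1 of 3 tested rose in tdT- sdCAMs.

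Csf1, the ligand of CSF1R, was detected at low levels in the sorted cells and rose with LPS in MG of WT and Ccr2-/- mice. Levels in Ccr2-/- MG were 23, 24.9 and 19.3 CPM after PBS and 62.5, 77.8 and 71.1 CPM after CTL+LPS, without overlap (log2 fold change 1.67, SE 0.183, adjusted p = 1.1e-05). WT MG had 45.1, 20.8 and 27.3 CPM after PBS and 71.8, 40.3 and 61.9 CPM after CTL+LPS, groups that overlapped because PBS mouse 9 was above CTL+LPS mouse 4. The WT change of 0.91 (SE 0.277, adjusted p = 0.0262) lost its call without CTL+LPS mouse 1 (0.0714) or 6 (0.0803) and without PBS mouse 14 (0.104) or 15 (0.0987). Ccr2-/- sdCAMs rose from 11.7, 9.66 and 11.2 CPM to 42.3, 24.1 and 46.3 CPM, also without overlap (1.79, SE 0.365, adjusted p = 0.0027).

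Csf1 did not follow this pattern in reporter MG or in the other sdCAMs. Reporter MG had 40.6, 39.1 and 24.9 CPM after PBS and 35.1, 22.6 and 28.9 CPM after LPS, which overlap (-0.31, 95% interval -1.46 to 0.84, adjusted p = 0.874). In WT sdCAMs it read 14, 61.7 and 8.76 CPM after PBS and 16.6, 15.2 and 10.4 CPM after CTL+LPS, and the fitted change of -0.91 (SE 0.723, adjusted p = 0.469) became 0.43 without PBS mouse 14, the single high library. Reporter tdT+ sdCAMs had 23.7, 14.1 and 16.7 CPM against 5.72, 19.2 and 7.1 CPM, and tdT- sdCAMs 12.5, 3.35 and 17.9 CPM against 11.3, 9 and 30.7 CPM, overlapping in both. The genotype difference of the LPS change in sdCAMs was 2.89 (SE 0.837, adjusted p = 0.211), and it ran from 1.55 to 3.34 over single omissions. After CTL+LPS sdCAMs had less Csf1 than MG, by a log2 difference of -2.00 in WT (SE 0.573, adjusted p = 0.0118) and -0.90 in Ccr2-/- mice (SE 0.272, adjusted p = 0.019). The Ccr2-/- difference lost its call without sdCAM mouse V2m (0.107) or MG mouse V2m (0.0563). At rest the difference was -1.05 in Ccr2-/- mice (SE 0.282, adjusted p = 0.0104) and -0.10 in WT (SE 0.54, adjusted p = 0.923).

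Il34, the second CSF1R ligand, was at or near zero in most libraries. It had 0 counts in 26 of 54 libraries, among them all 3 resting and all 3 repopulated WT sdCAM libraries. Ccr2-/- sdCAMs had 24, 12 and 12 counts after PBS (2.51, 1.4 and 1.36 CPM) and 24, 10 and 1 counts after CTL+LPS, against 1, 1 and 0 counts in resting Ccr2-/- MG. Counts above 3 also occurred after BLZ945+LPS in Ccr2-/- sdCAMs (1 to 16) and Ccr2-/- MG (1 to 6), and in resting tdT- sdCAMs (1 to 8). With MG set to a floor of 3 counts per library, mean Il34 was at least 5.33-fold higher in resting Ccr2-/- sdCAMs. The fitted difference passed at rest (adjusted p = 0.041) but not with the replicate block (0.0697) or without any 1 of the 6 libraries (0.062 to 0.149). After CTL+LPS, where 1 sdCAM library had 1 count, the fitted difference passed (adjusted p = 0.0374) but not with the block (0.0781), and without sdCAM mouse V1m (0.169) or V2m (0.0569) or MG mouse V2m or V4f (0.14 for each) it did not pass. A single tdT- library after LPS, mouse 5, held 45 counts (10.9 CPM) where the others of its group had 0. Il34 overlaps 2 annotated genes on the opposite strand that are not rows of the tables, so these few reads are uncertain. Markers of neurons, a known source of Il34 in brain, summed over 5 genes to 27 to 31.3 CPM in resting Ccr2-/- sdCAMs. They summed to 10.7 to 13.3 CPM in resting Ccr2-/- MG and 22.8 to 86.5 CPM in resting WT sdCAMs. The resting WT sdCAM libraries, at 0 counts of Il34, were shallower, with 1929070 to 3049028 total counts against 8124128 to 8929948 in resting Ccr2-/- sdCAMs. The part of neuronal RNA in the Il34 counts was not tested.

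On TMM-scaled levels the common beta chain gene Csf2rb was higher after LPS than after PBS in all populations, with no overlap in 7 of 7. In WT and tdT- sdCAMs, with scaling factors of 0.344 to 0.494 and 0.47 to 0.7 after LPS, this separation depended on the scaling. On unscaled CPM the LPS and PBS libraries of these populations overlapped. WT MG went from 98.6, 93.3 and 89.4 CPM to 349.9, 323.7 and 369.5 CPM, and Ccr2-/- MG from 86.1, 89.6 and 97.4 CPM to 386.7, 396.3 and 349.9 CPM. These were rises of 1.90 (SE 0.134, adjusted p = 2.06e-06) and 2.07 (SE 0.143, adjusted p = 1.85e-07) on the log2 scale. Ccr2-/- sdCAMs went from 105.1, 94 and 105.6 CPM to 320.7, 273.5 and 276.7 CPM (1.51, SE 0.163, adjusted p = 1.95e-05). Resting levels in MG and sdCAMs were close, with log2 differences of 0.18 (95% interval -0.48 to 0.83) in WT and 0.15 (-0.15 to 0.45) in Ccr2-/- mice. In WT sdCAMs the values were 88.5, 132.0 and 92.4 CPM and then 298.4, 163.2 and 240.3 CPM (1.30, SE 0.466, adjusted p = 0.113, 0.0308 with DESeq2). Among reporter sdCAMs the tdT+ cells went from 88.6, 100.8 and 96.7 CPM to 294.0, 215.4 and 318.1 CPM (1.53, SE 0.353, adjusted p = 0.00963). The tdT- cells went from 119.7, 75 and 95.9 CPM to 326.1, 132.5 and 310.5 CPM (1.40, SE 0.352, adjusted p = 0.00796, 0.0605 without PBS mouse 175). Reporter MG had 147.3, 175.0 and 109.2 CPM after PBS and 344.2, 194.7 and 261.5 CPM after LPS, a change of 0.85 that did not pass (SE 0.378, adjusted p = 0.381).

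Csf2rb2 followed Csf2rb. It read 38.4, 41.7 and 39.5 CPM in WT MG after PBS and 151.3, 159.3 and 187.2 CPM after CTL+LPS (log2 fold change 2.06, SE 0.144, adjusted p = 2e-06), and the change was 2.00 in Ccr2-/- MG (SE 0.156, adjusted p = 5.57e-07) and 1.76 in Ccr2-/- sdCAMs (SE 0.321, adjusted p = 0.00125). Its largest log2 fold change was in tdT+ sdCAMs, from 7.13, 18.9 and 18.6 CPM to 164.8, 91.8 and 101.5 CPM (3.00, SE 0.46, adjusted p = 0.00067, and 0.00227 with the columns exchanged). The tdT- cells went from 21.6, 21 and 30.3 CPM to 119.0, 81.4 and 56.9 CPM (1.81, SE 0.44, adjusted p = 0.0063). Across the 18 group means of log2 levels the 2 genes had a Pearson correlation of 0.932, a description that their shared sequence enters. With the columns exchanged, Csf2rb and Csf2rb2 were still called in tdT+ and in tdT- sdCAMs. WT sdCAMs overlapped, with 69.4, 24 and 50.8 CPM and then 88.4, 60.6 and 103.9 CPM (0.96, SE 0.562, adjusted p = 0.319).

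The alpha chain gene Csf2ra, which gives the GM-CSF receptor its specificity, rose with LPS in Ccr2-/- sdCAMs. It was 100.8, 110.9 and 110.6 CPM there after PBS and 240.7, 206.6 and 185.5 CPM after CTL+LPS (log2 fold change 0.97, SE 0.162, adjusted p = 0.000627). In MG the same comparison gave 0.30 in WT (95% interval -0.02 to 0.62, adjusted p = 0.139) and 0.44 in Ccr2-/- mice (0.02 to 0.86, adjusted p = 0.0975, and 0.0241 without PBS mouse 1m, where it was 0.66). WT sdCAMs had 173.8, 76 and 92.4 CPM after PBS and 296.2, 345.1 and 182.2 CPM after CTL+LPS, without overlap but short of the threshold (1.38, SE 0.49, adjusted p = 0.109, 0.0416 with DESeq2). For tdT- sdCAMs the groups were also apart, at 134.8, 168.3 and 233.2 CPM against 367.6, 374.9 and 317.6 CPM (0.98, SE 0.355, adjusted p = 0.0521, 0.00713 with DESeq2, and 0.266 with the exchange), and for tdT+ sdCAMs the change was 0.01 (95% interval -0.74 to 0.76). In WT and in tdT- sdCAMs the separation of Csf2ra depended on the scaling, and on unscaled CPM the LPS and PBS libraries overlapped.

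On TMM-scaled levels Csf2ra was higher in sdCAMs than in MG in all of 4 comparisons, at rest and after CTL+LPS, but that of resting WT mice. Resting Ccr2-/- MG had 72.6, 39.8 and 56.7 CPM, all below the sdCAM values above (log2 difference 0.93, SE 0.183, adjusted p = 0.000921). After CTL+LPS the difference was 1.49 in Ccr2-/- mice (SE 0.184, adjusted p = 4.75e-06) and 1.05 in WT (SE 0.338, adjusted p = 0.0227). The WT call was lost without sdCAM mouse 1 (0.0606) or 4 (0.0797) and without MG mouse 1 (0.0509), 4 (0.0746) or 6 (0.0911). The direction in WT after CTL+LPS also depended on the scaling, with factors of 0.344 to 0.494 in sdCAMs and 1.3 to 1.37 in MG. On unscaled CPM all of these sdCAM libraries lay below all of these MG libraries. No difference was found in resting WT mice (0.04, 95% interval -0.66 to 0.75). All 8 sdCAM marker genes were higher in sdCAMs in each of the 4 comparisons, that of resting WT mice included. Csf2, the gene of the ligand GM-CSF, had 0 counts in 52 of 54 libraries, with 19 counts in tdT+ mouse 174 after PBS and 2 in Ccr2-/- sdCAMs of mouse V1m, so it was not tested.

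**Figure D3:**
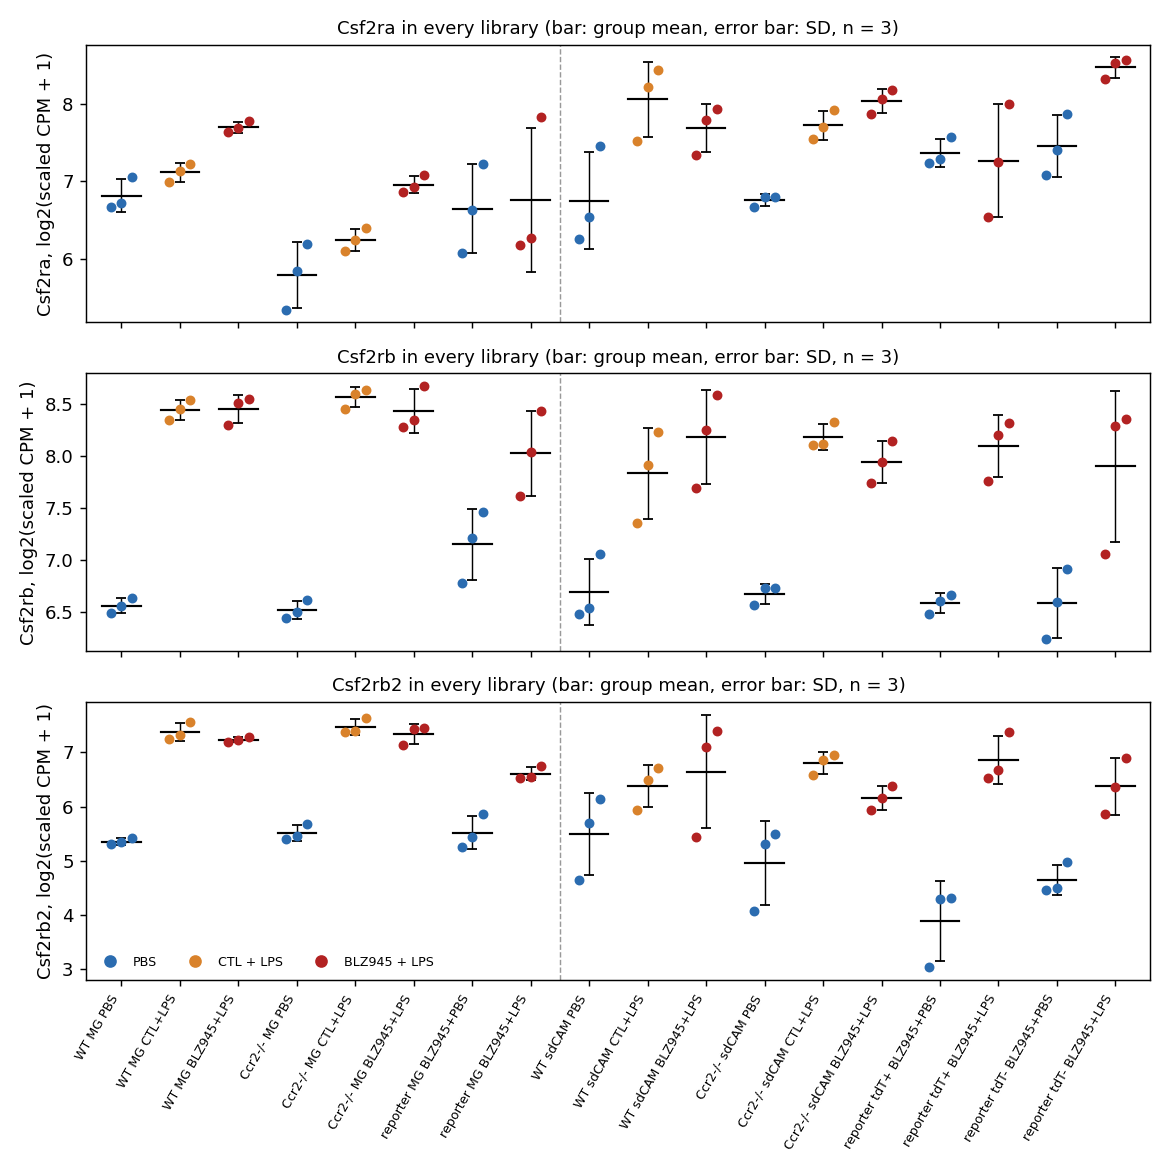
Levels of Csf2ra, Csf2rb and Csf2rb2 in each library as log2(scaled CPM + 1), with group means and SD bars (n = 3) and a dashed line between MG and sdCAM groups. Csf2rb in LPS groups lies above the PBS group of the same population in 7 of 7 populations, and Csf2ra of both MG genotypes is higher after BLZ945+LPS than after CTL+LPS.

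Csf3r, the G-CSF receptor gene, was higher in MG than in sdCAMs at rest and moved in opposite directions with LPS in MG and sdCAMs of Ccr2-/- mice. WT MG had 654.7, 466.5 and 468.1 CPM after PBS and resting WT sdCAMs 137.2, 74.3 and 150.2 CPM, a log2 difference of -2.13 (SE 0.366, adjusted p = 0.000885). For Ccr2-/- mice these values were 493.5, 340.5 and 395.1 CPM in MG and 129.2, 103.1 and 120.8 CPM in sdCAMs (-1.81, SE 0.199, adjusted p = 1.24e-06). All resting MG libraries were above all resting sdCAM libraries. The microglial share of the sdCAM libraries, taken as the median percent of marker levels in MG of the same mouse, was 24.6% to 38.1% in the resting WT libraries and 8.46% to 12.2% in the resting Ccr2-/- libraries, and its part in the sdCAM level was not tested.

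After CTL+LPS Csf3r was 149.4, 387.7 and 241.2 CPM in WT MG and 208.8, 178.7 and 181.4 CPM in Ccr2-/- MG, below every PBS library of the same genotype. The log2 fold changes were -1.02 (SE 0.284, adjusted p = 0.0171) and -1.09 (SE 0.194, adjusted p = 0.000604), and the WT call was lost without CTL+LPS mouse 6 (0.0652) or PBS mouse 9 (0.0746). Reporter MG went from 681.8, 643.5 and 539.0 CPM to 202.7, 225.2 and 215.6 CPM without overlap (-1.57, SE 0.296, adjusted p = 0.0625, 7.52e-05 with DESeq2 and 0.0392 without PBS mouse 175). Ccr2-/- sdCAMs rose instead, to 305.8, 241.4 and 247.1 CPM (1.17, SE 0.182, adjusted p = 0.000379). The difference between the populations in the LPS change of Csf3r was 2.29 (SE 0.276, adjusted p = 2.1e-05), and after LPS Ccr2-/- sdCAMs lay above MG in level (0.49, SE 0.193), without passing (adjusted p = 0.0695, 0.0241 with DESeq2).

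Csf3r did not rise in every sdCAM group. WT sdCAMs after CTL+LPS had 93.7, 72.3 and 86.7 CPM (-0.37, 95% interval -1.26 to 0.52), and the interaction in WT was 0.59 (SE 0.498, adjusted p = 0.565). The genotype difference of this change in sdCAMs was 1.73 (SE 0.436, adjusted p = 0.205, 0.0254 with DESeq2). The tdT+ sdCAMs went from 111.1, 134.8 and 131.7 CPM to 166.0, 209.6 and 175.5 CPM without overlap as named (0.55, SE 0.282, adjusted p = 0.22). With the exchange their LPS values ran from 128.7 to 209.6 CPM and overlapped PBS (0.42, adjusted p = 0.519). The tdT- sdCAMs went from 158.7, 123.4 and 191.5 CPM to 128.7, 109.7 and 96.5 CPM (-0.50, SE 0.282, adjusted p = 0.198). Neutrophils also express Csf3r. The summed level of 8 neutrophil markers rose from 1.4 to 3.14 CPM in resting Ccr2-/- sdCAMs to 77.9 to 125.5 CPM after CTL+LPS, was 360.3 to 3314.4 CPM in WT sdCAMs after CTL+LPS, where Csf3r did not rise, and 19.2 to 71.1 CPM in tdT+ and 598.8 to 2360.8 CPM in tdT- sdCAMs after LPS. Ly6g had 0 counts and Retnlg 11 counts over all 54 libraries. The only neutrophil markers tested in Ccr2-/- sdCAMs, S100a8 and Mmp8, rose with LPS (log2 fold changes 5.58 and 8.71, adjusted p = 1.73e-05 and 7.13e-06). The part of neutrophil RNA in Csf3r was not tested.

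Csf3, which encodes G-CSF, was the member that went from no reads to many. It had 0 counts in all 21 PBS libraries and 6 to 1066 counts in all 18 sdCAM libraries after LPS. Ccr2-/- sdCAMs reached 112.7, 112.3 and 108.2 CPM after CTL+LPS, WT sdCAMs 45.3, 7 and 50.1 CPM, tdT+ sdCAMs 30.3, 8.6 and 45.7 CPM and tdT- sdCAMs 38.3, 216.9 and 141.0 CPM. With the PBS libraries set to a floor of 3 counts each, the mean level of Csf3 was at least 318.2-fold higher in Ccr2-/- sdCAMs (adjusted p = 3.9e-07). It was at least 26-fold higher in WT sdCAMs (adjusted p = 0.012). In the reporter mice the mean was at least 83.2-fold higher in tdT+ (adjusted p = 0.000436) and at least 421.2-fold higher in tdT- sdCAMs (adjusted p = 3.46e-05). These calls held in each alternative run that gave Csf3 a value, the exchange of columns included. In WT sdCAMs the fit of only the libraries compared gave it none, so that call was not tried there.

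MG had few or no Csf3 reads after LPS. WT MG had 4, 0 and 0 counts after CTL+LPS and 0 after BLZ945+LPS, and Ccr2-/- MG had 0 counts after CTL+LPS and 12, 1 and 1 after BLZ945+LPS. Mean Csf3 was therefore at least 426.0-fold higher in Ccr2-/- sdCAMs than in MG of these mice after CTL+LPS (adjusted p = 6.13e-07). Reporter MG had 34, 14 and 19 counts (3.51, 1.37 and 1.78 CPM), with a mean at least 7.17-fold above the PBS floor (adjusted p = 0.114). Fibroblasts and endothelial cells can make G-CSF. Markers of both cell types, 6 genes, summed to 12.7 to 26 CPM in Ccr2-/- sdCAMs after PBS and 25.3 to 34.4 CPM after CTL+LPS. These genes did not share a direction there. Dcn rose (log2 fold change 2.22, adjusted p = 0.00328), whereas Flt1 (2.39), Pecam1 (-0.52), Col1a1 (-3.03) and Col1a2 (-4.22) did not pass and Cldn5 was not tested. Monocyte markers, 6 genes, summed to 2.44 to 5.21 and 104.2 to 194.0 CPM in the same groups. The part of any of these cell types in the Csf3 signal was not tested.

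**Figure D4:**
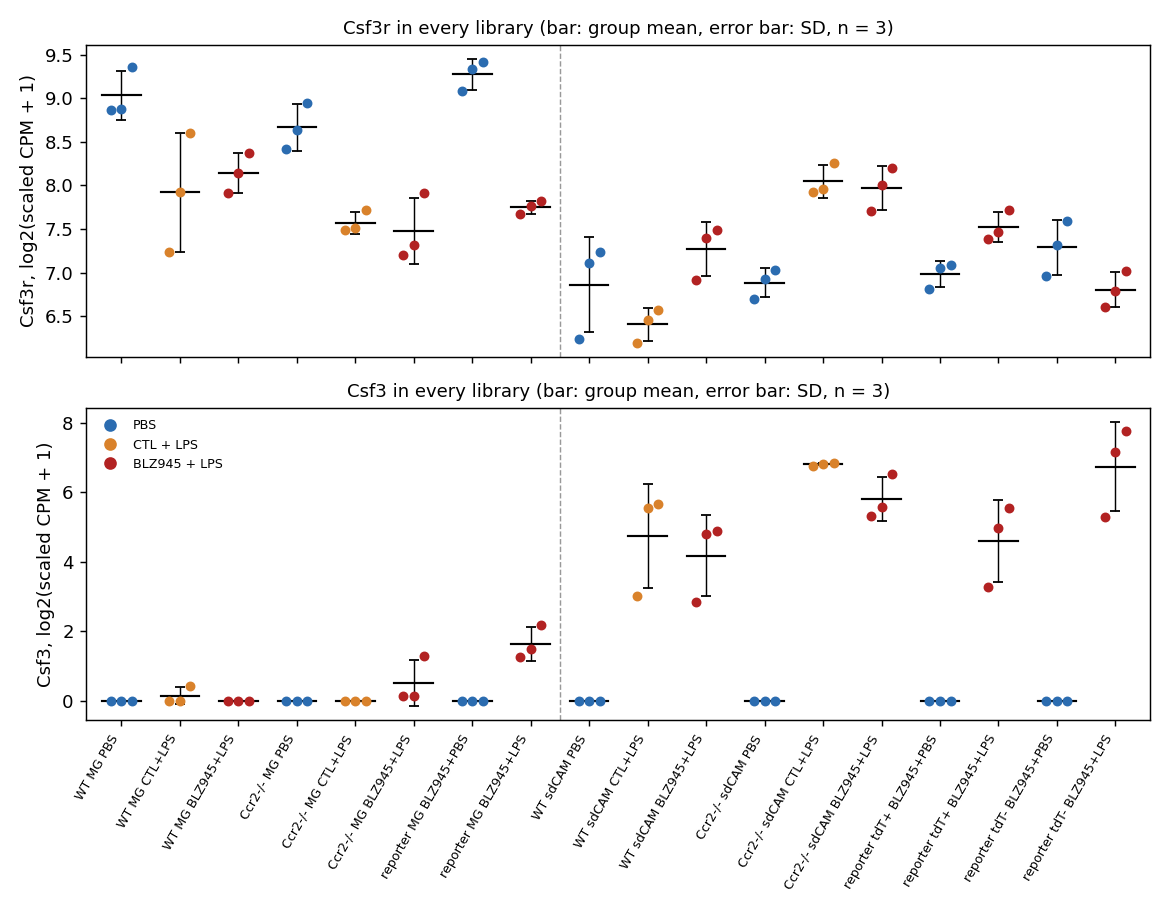
Csf3r and Csf3 in each library as log2(scaled CPM + 1), with group means and SD bars (n = 3) and a dashed line between MG and sdCAM groups. Csf3r is high in resting MG and lower there after LPS but higher after LPS in Ccr2-/- sdCAMs, and Csf3 is at 0 in all 21 PBS libraries and present in all 18 sdCAM libraries after LPS.

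Among genes downstream of the GM-CSF and G-CSF receptors, more rose than fell after LPS, as was also so over all genes. Of 18 listed genes, 6 of 13 tested rose and 1 fell in WT MG, 8 of 14 rose and 1 fell in Ccr2-/- MG, and 7 of 14 rose and 1 fell in Ccr2-/- sdCAMs, with medians of 0.44, 1.06 and 0.92 on the log2 scale. Over all genes 30.9% passed in WT MG (1969 higher, 1674 lower), 34.9% in Ccr2-/- MG (2240 higher, 1796 lower) and 28.8% in Ccr2-/- sdCAMs (1882 higher, 1561 lower). Socs3, the feedback inhibitor of G-CSF and gp130 receptors, rose by 4.27, 3.79 and 6.47 (adjusted p = 9.18e-07, 4.51e-07 and 3.5e-09). The survival kinase gene Pim1 rose by 3.23, 4.36 and 1.80 (adjusted p = 0.000956, 5.21e-05 and 0.000668). The anti-apoptotic gene Mcl1 rose by 1.21 in Ccr2-/- MG and by 0.89 in Ccr2-/- sdCAMs (adjusted p = 2.86e-06 and 0.000336). Cish, a STAT5 target, was too low to test in WT MG and gave 1.89 (SE 0.961, adjusted p = 0.147) and 0.95 (SE 1, adjusted p = 0.54) in Ccr2-/- MG and sdCAMs. In the other populations 1 rose (WT sdCAMs), 1 rose (reporter MG), 2 rose (tdT+) and 3 rose (tdT-), and none fell. Over all genes 6.32%, 1.08%, 13.6% and 27.1% passed in these populations.

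No member passed the threshold between repopulated and vehicle-treated mice. BLZ945+LPS was compared with CTL+LPS in 4 populations, and 0 of 6 members tested passed in WT MG, 0 of 7 in WT sdCAMs, 0 of 6 in Ccr2-/- MG and 0 of 8 in Ccr2-/- sdCAMs, where 0.0763%, 0%, 0.0173% and 0% of all genes did. At an unadjusted p under 0.05, 776, 758, 769 and 998 genes differed. No gene of the 4 lists above passed in any of these populations. For Csf1r, the target of BLZ945, WT MG had 6823.0, 7049.5 and 7316.4 CPM after BLZ945+LPS, within the spread of CTL+LPS (log2 difference 0.04, 95% interval -0.19 to 0.28). The difference was -0.20 (-0.48 to 0.07) in Ccr2-/- MG and -0.18 (-0.47 to 0.10) in Ccr2-/- sdCAMs, whose values were 7280.4, 5819.7 and 8151.2 CPM and 2518.5, 3013.4 and 2212.8 CPM. In WT sdCAMs Csf1r was 2456.5, 1979.6 and 1418.1 CPM, all above the CTL+LPS values, with an interval too wide to place it (0.71, -0.72 to 2.14). The lowest of these, mouse 12, was the only one with the IEG correction mark, which every WT sdCAM library after CTL+LPS carried. In WT sdCAMs BLZ945 and this mark therefore cannot be fully told apart.

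Csf2ra was higher after BLZ945+LPS than after CTL+LPS in MG of both genotypes without overlap. WT MG had 148.5, 140.1 and 126.0 CPM after CTL+LPS and 197.6, 205.3 and 217.9 CPM after BLZ945+LPS, and Ccr2-/- MG had 74.8, 67.8 and 83.3 CPM and then 135.0, 115.8 and 120.6 CPM. The log2 differences of 0.59 (SE 0.145) and 0.71 (SE 0.195) did not pass across all genes with edgeR (adjusted p = 0.319 and 0.56), while DESeq2 called the first (0.0263) and edgeR without the low-count filter the second (0.0365). In sdCAMs the same difference was -0.47 (95% interval -1.52 to 0.59) in WT and 0.28 (-0.06 to 0.63) in Ccr2-/- mice.

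The ligand genes also stayed short of the threshold. Csf3 in Ccr2-/- sdCAMs was 90.7, 46.9 and 38.7 CPM after BLZ945+LPS, all below CTL+LPS (-0.94, SE 0.31, adjusted p = 0.494, 0.0425 without the low-count filter), and WT sdCAMs had 6.12, 28.5 and 27 CPM, overlapping with CTL+LPS (-0.84, SE 0.881, adjusted p = 0.805). Csf1 in WT sdCAMs was 48.3, 33.1 and 35.3 CPM, all above CTL+LPS (1.40, SE 0.728, adjusted p = 0.711), and in Ccr2-/- sdCAMs 13.3, 19 and 29.8 CPM, overlapping (-0.88, SE 0.355, adjusted p = 0.549). In Ccr2-/- MG Csf1 was 44.5, 41.6 and 54.3 CPM, all below CTL+LPS (-0.60, SE 0.177, adjusted p = 0.627). The genotype difference of the BLZ945 effect on Csf1 in sdCAMs was -2.26 (SE 0.829, adjusted p = 0.437).

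**Figure D5:**
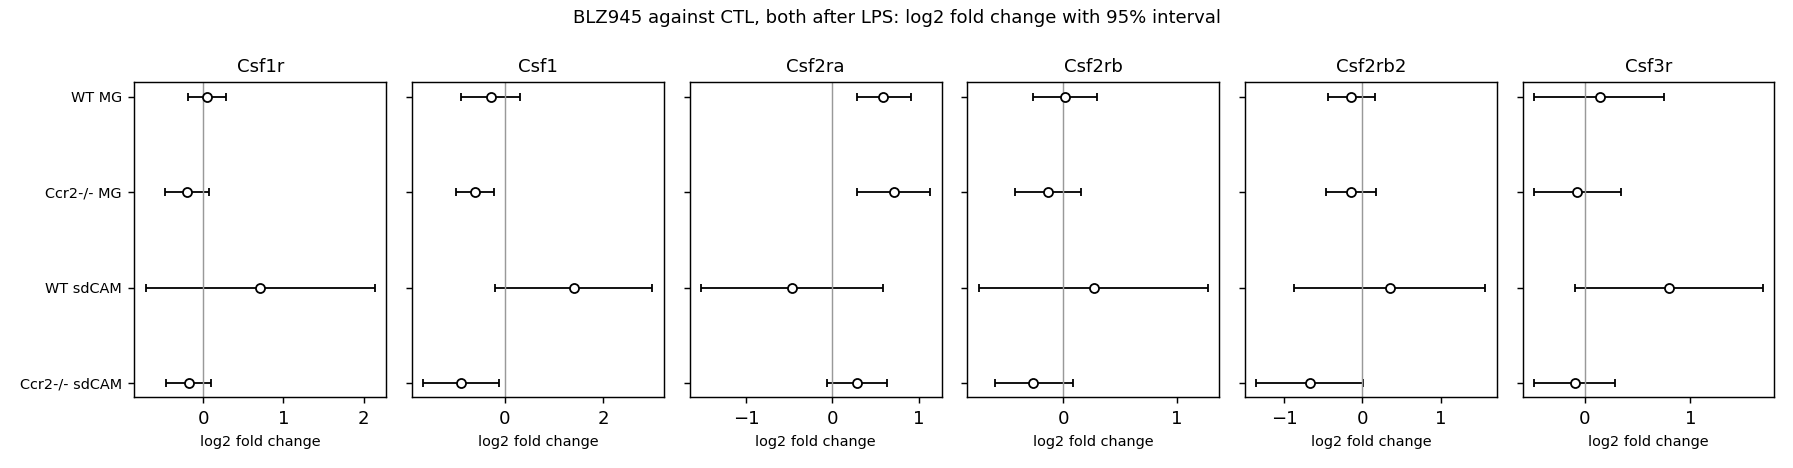
Log2 difference of 6 members between BLZ945 and CTL, both after LPS, in 4 populations, with 95% intervals and open points where the adjusted p was not under 0.05. All points are open, the intervals of WT sdCAMs are the widest, and Csf2ra lies at 0.59 and 0.71 in the MG of WT and Ccr2-/- mice.

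Comparisons between populations and genotypes gave these shares. Between sdCAMs and MG, 2 of 7 members passed in resting WT mice (both lower in sdCAMs) against 17.4% of genes, 5 of 7 after CTL+LPS (2 higher, 3 lower) against 36.7%, and 0 of 7 in the WT interaction against 1.32%. Ccr2-/- mice gave 5 of 8 at rest (2 higher, 3 lower) against 22.4%, 5 of 8 after CTL+LPS (3 higher, 2 lower) against 27.0%, and 2 of 8 in the interaction, Csf1r and Csf3r, against 8.14%. Between WT and Ccr2-/- mice no member passed the edgeR test of a difference in the response to LPS or to BLZ945, with 0 of 6 in MG and 0 of 8 in sdCAMs and 0% of all genes in each of the 4 tests. At an unadjusted p under 0.05 the counts of genes were 503 and 494 in MG and 1792 and 1332 in sdCAMs, and DESeq2 called 1 member, Csf3r, for LPS in sdCAMs (1.55, adjusted p = 0.0254).

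Within repopulated sdCAMs of reporter mice, tdT+ and tdT- cells were compared at rest and after LPS. None of 7 members passed after PBS, where 0.0236% of genes did, and the log2 difference of Csf1r was -0.27 (95% interval -1.03 to 0.50). After LPS 1 of 7 passed, Csf1r, against 10.8% of genes. Csf1r was higher in tdT+ than in tdT- cells by 1.44 (SE 0.366, adjusted p = 0.0191), all tdT+ libraries lying above all tdT- libraries. Without tdT+ mouse 5 the difference was 1.01, which still passed, and with the columns exchanged it was 0.82 (adjusted p = 0.879), with ranges of 916.0 to 3634.5 CPM in tdT+ and 725.0 to 1793.7 CPM in tdT- cells that overlap. Csf2ra was lower in tdT+ cells by a log2 difference of -1.09 (SE 0.356, adjusted p = 0.0645), which passed with the mouse as a block (-1.21, 0.042) or without tdT+ mouse 7 (-1.49, 0.023) and was -0.63 (0.895) with the exchange. Csf3 had a difference of -2.24 (SE 0.722, adjusted p = 0.074), 0.0261 without tdT- mouse 1 (-2.64), and -2.40 (0.763) with the exchange.

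The genes whose pattern was most like that of a member were found by Pearson correlation of log2 group means over the 18 groups among 10911 genes, which is a description of these groups. Csf1r had St6galnac4 (0.983), Daglb (0.983) and Pacc1 (0.980) nearest, of which 2 were also among its nearest on unscaled CPM. Csf2rb had Nolc1 (0.955), Slc39a14 (0.954) and Fkbp5 (0.953), with 1 shared. Csf2ra had Ms4a4b (0.864), Lilrb4b (0.844) and Ptpn11 (0.844), with 0 shared, so its neighbours depend on the scaling. Among the members the correlation of Csf1r was -0.876 with Csf3, -0.772 with Csf2ra and 0.588 with Csf3r.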

How the data were processed

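RNA of MG and sdCAMs sorted from 24 mice was amplified with a SMARTer low-input kit, made into Nextera XT libraries and read as single 50-base reads. The authors aligned reads with STAR 2.7.11a and counted them per gene with featureCounts 2.0.8, and the deposited values are raw counts in 3 tables of 18 columns (all matched to samples). The labels name mm10 and a newer annotation, and strand was not stated. Members and gene lists were chosen with earlier results of these data known. Tests were edgeR 4.0.16 quasi-likelihood fits (R 4.3.3, limma 3.58.1) on all genes after filterByExpr and TMM, 2-sided, with Benjamini-Hochberg adjustment over all genes tested and a call at adjusted p under 0.05. The fits used the libraries of 1 population and genotype (LPS, BLZ945), of 1 genotype (cell types), of 1 population in WT and Ccr2-/- mice (genotype), or the 12 reporter sdCAM libraries. DESeq2 1.42.0 and other scalings, filters and fits were alternatives. Libraries of a mouse pair MG with sdCAMs, and their deviations from group means correlated at -0.07 to 0.26. No identifiers marked molecules, so floors of 3 counts cover counting error only. Scripts were tested on simulated counts. Named genes were all 8 members, Csf2, Spi1, Socs3, Pim1 and Cish, and at most 4 genes per list by smallest p in Ccr2-/- sdCAMs after LPS, of which 1 is not reported here. Of the marker lists not described above, lymphocyte markers (7 genes) summed to at most 141.5 CPM, reached in tdT- sdCAMs after LPS, dendritic cell markers (5 genes) to at most 628.0 CPM and astrocyte and oligodendrocyte markers (6 genes) to at most 543.0 CPM, both in resting Ccr2-/- sdCAMs.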

Additional observations from a re-analysis of the deposited data

Results flagged for a closer look

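The LPS change of Csf1r differed between sdCAMs and MG of Ccr2-/- mice by -1.10 on the log2 scale, and that of Csf3r by 2.29, each by a test of the interaction. In reporter mice Csf3r was lower after LPS in every MG library (-1.57) and higher in every tdT+ sdCAM library as named (0.55), a difference in direction that was not itself tested. Neither change passed (adjusted p = 0.0625 and 0.22), and with the 2 reporter columns exchanged the tdT+ values after LPS overlapped PBS (0.42).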

How the results depend on the processing

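Of 94 values for members, 50 were called, 35 of them in every alternative run that gave them a value, and 0 of the called values reversed. Of 1142 alternative values 1050 kept their direction and side of the threshold, 58 lost a call, 32 gained one and 2 reversed, neither called: Csf1 after LPS in WT sdCAMs without PBS mouse 14 (0.43, from -1.35 to 0.43 over single omissions) and Csf1r with BLZ945 in WT MG without CTL+LPS mouse 1 (-0.04, from -0.04 to 0.11). Numbers of members called that moved by more than 1.5 times were as follows. With a fold limit there were 3 for LPS in WT MG and 3 for resting Ccr2-/- cell types. DESeq2 gave 4 for LPS in WT sdCAMs, 2 in reporter MG, 1 for BLZ945 in WT MG, 1 for the WT interaction, 1 for genotype by LPS in sdCAMs and 3 for tdT+ against tdT- after LPS. Without the low-count filter there were 1 for LPS in reporter MG, 1 for BLZ945 in Ccr2-/- MG, 1 in Ccr2-/- sdCAMs, 3 for resting Ccr2-/- cell types and 2 for tdT+ against tdT- after LPS. Fits of only the libraries compared gave 0 for LPS in WT sdCAMs and 0 for tdT+ against tdT-, and the correction mark as a covariate gave 2 for the former. For tdT+ against tdT- after LPS, median-of-ratios scaling gave 2, the replicate block 2, and the exchange of columns 0, also with the block. The replicate block gave 1 for resting WT and 3 for resting Ccr2-/- cell types, and the Csf1r, Il34 and Csf2ra calls it changed are given above. Leaving out 1 library at a time gave 3 to 5 members for LPS in WT MG, 0 to 2 in reporter MG, 1 to 2 for resting WT cell types, 3 to 3 for resting Ccr2-/- cell types, 3 to 5 for Ccr2-/- cell types after LPS and 1 to 2 for tdT+ against tdT- after LPS. Smaller shifts were 4 for LPS in Ccr2-/- MG, 6 in Ccr2-/- sdCAMs and 4 for Ccr2-/- cell types after LPS under the fold limit, 3 in tdT+ sdCAMs under the exchange, and, over single omissions, 5 to 6 in Ccr2-/- MG, 3 to 4 in tdT+ and in tdT- sdCAMs and 4 to 5 for WT cell types after LPS. The causes of these shifts were not tested. The exchange with the block and the sum of Csf2rb and Csf2rb2 were alternatives chosen after the data were seen, and the sum changed the call of Csf2rb between Ccr2-/- cell types after LPS (-0.46, adjusted p = 0.0169). Il34, Csf2 and, in WT and Ccr2-/- MG, Csf3 lay mostly at or under the floor of 3 counts, where levels cannot be ranked.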
